A study of Mus musculus with 6 samples.

Results

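The 8 mouse genes Casp1, Casp4, Casp6, Casp8, Casp9, Nlrp3, Pycard and Gsdmd were taken by symbol from a table of read counts for 31205 genes, and all 8 had a row in it. The libraries came from DC2.4, a mouse dendritic cell line: 3 from its PD-L1 knockout derivative, KO libraries 1 to 3, and 3 from DC2.4 cells labelled Control. No drug, dose or time is named for any of the 6, the title sets the study in dendritic cell ferroptosis during immunogenic chemotherapy, and the labels do not say whether the derivative is 1 clone, how the gene was disrupted or whether each library had its own culture. The p-values therefore cover no more than library-to-library spread, part or all of which could be technical. Total counts ran between 13501776 and 21133688 in KO libraries and between 10918498 and 23250065 in Control libraries.

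Caspases are cysteine proteases that are made as inactive precursors and cut their targets after aspartate. Caspase-8, joined to death receptors through FADD, and caspase-9, joined to APAF1 once cytochrome c leaves mitochondria, start apoptosis, and executioner caspases such as caspase-6 carry it out. An inflammasome is a platform in which a sensor such as NLRP3 recruits the adaptor ASC, encoded by Pycard, which gathers pro-caspase-1. Caspase-1 then matures interleukin-1β and interleukin-18 and cuts gasdermin D, whose freed end forms pores in the plasma membrane, a lytic death called pyroptosis. Mouse caspase-4, also called caspase-11, binds bacterial lipopolysaccharide in the cytosol and cuts gasdermin D directly. In dendritic cells and macrophages this route is known for the release of interleukin-1β.

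Cd274, which encodes PD-L1, had 102, 81 and 163 counts in KO libraries 1, 2 and 3, against 52, 99 and 171 in Control libraries 1, 2 and 3. It did not pass (log2 fold change 0.28, edgeR adjusted p = 0.415), so its gene count gives no check of the labels, on which every direction given here rests. Of 13 dendritic cell markers, 7 had at most 20 counts in any library: Clec9a and Cd209a were at 0 in all, and Flt3, Ccr7, Batf3, Xcr1 and H2-Aa were near 0. The others were detected, and the list's summed level, mostly that of Cd74 and Spi1, was 493 to 557 CPM (counts scaled to library size with TMM factors) in KO libraries and 494 to 520 CPM in Control libraries. Zbtb46, a transcription factor of classical dendritic cells, was lower in KO cells (log2 fold change -0.72, edgeR adjusted p = 0.049). That call was made in 7 of 15 alternatives and lost without Control library 2 (0.179), Control library 3 (0.1705), KO library 2 (0.144) or KO library 3 (0.1502). It was also lost with a correction for exon length and GC content (0.1789; with the replicate block 0.204), with the block alone (0.0568) and without the low-count filter (0.0549). Markers of lymphocytes summed to 0.299 to 0.755 CPM in KO libraries and 0.652 to 0.895 CPM in Control libraries. Of 10 myeloid markers, which summed to 1292 to 1668 CPM in KO libraries and 1432 to 1924 CPM in Control libraries, 1 was higher and 3 were lower. Lyz2, which encodes lysozyme, had 20.8, 13.6 and 13.2 CPM in KO libraries, against 140.2, 93.2 and 100.3 CPM in Control libraries (-2.81, adjusted p = 9.3e-05). Fcgr1 (-1.18, 0.000625) and Csf1r (-0.72, 0.0143) fell too, and Fcer1g rose (0.76, 0.0127). Lyz2 and Fcgr1 were called in 15 of 15 alternatives, and Csf1r and Fcer1g in 12. Both of the latter calls were lost without Control library 2 (0.0613 for Csf1r and 0.0694 for Fcer1g). That of Csf1r was lost without KO library 2 (0.05902) or KO library 3 (0.0538). That of Fcer1g was lost with the length and GC correction (0.36, adjusted p = 0.209; with the block 0.32, 0.178). The endothelial list had 1 tested gene, Vwf (19.4 to 24.4 CPM in KO libraries and 26.1 to 30.7 CPM in Control libraries, adjusted p = 0.0651), and its 4 other markers had at most 20 counts. Epithelial markers summed to 0.0497 to 0.403 CPM in KO libraries and 0.0895 to 0.178 CPM in Control libraries. Of 9 stromal markers 3 were at 0 in all libraries, and the list summed to at most 0.269 CPM in KO libraries and from 0.36 to 217 CPM in Control libraries. The high value was that of Control library 2, which held 2235 Col1a1 and 1382 Fn1 counts. The rest of the list was low there, with 22 counts of Col1a2, 10 of Col3a1 and 7 of Pdgfrb. Dcn, Lum, Pdgfra and Thy1 had 0 counts in that library. The part of these transcripts in the results was not tested. KO library 1 stood apart on the second principal component of log2 CPM (38, against -17 to 11.8 for the other libraries, 15.8% of the variance). Where leaving out Control library 2 or KO library 1 changed the call of a named gene, the value without it is given.

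No caspase or inflammasome gene of the 8 passed the test between PD-L1 knockout and Control cells. Of 7 tested, 0 were higher and 0 lower by edgeR's quasi-likelihood test at an adjusted p under 0.05, where 25.3% of the 11453 genes tested were called. At an unadjusted edgeR p under 0.05 the count was 1, Casp1, against 4680 of the 11453 genes tested. After adjustment edgeR did not call Casp1 (adjusted p = 0.0629), while DESeq2 did (adjusted p = 0.0491). The 7 log2 fold changes (knockout over control) lay between -0.62 and 0.26 with a median of -0.02, against 0.01 over all genes tested. KO and Control libraries did not overlap for 3 of the 7, Casp8 and Gsdmd higher and Casp1 lower in KO libraries, and 43% of all genes tested were apart in this way (21.1% higher and 21.8% lower). Pycard was left out of the test by the filter on low counts. In cultures measured in bulk, fewer cells with a transcript and less of it per cell cannot be told apart.

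**Figure D1:**
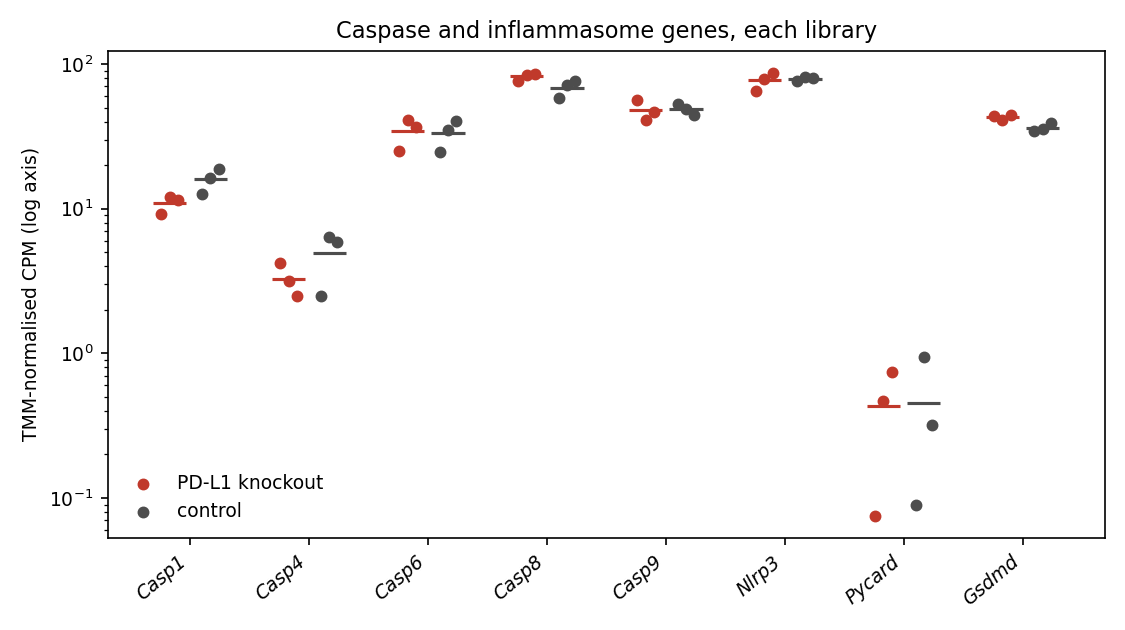
TMM-normalised CPM on a log axis for each of the 8 genes, with 1 point per library and a line at the mean of 3; KO libraries are in red and Control libraries in grey. Pycard lies below 1 CPM in all 6 libraries, and the red and grey points are apart for Casp1, Casp8 and Gsdmd alone.

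Of the inflammatory caspases, Casp1 encodes the protease that the inflammasome activates (ENSMUSG00000025888.5, chromosome 9, 5298517 to 5307265, + strand, mm10). Casp4 is its neighbour on the same strand (ENSMUSG00000033538.13, chromosome 9, 5308828 to 5336783), 1562 bases further on. The 300 bases from 250 before to 50 after the annotated start are printed for these neighbours, for the sensor gene Nlrp3 and for Pycard, because Casp1 came nearest to the threshold, Casp4 is its neighbour, and Nlrp3 and Pycard stood far apart in level (RefSeq, GRCm38.p6, the assembly of mm10). They are chr9:5298267-5298566 (+) for Casp1, chr9:5308599-5308898 (+) for Casp4, chr11:59541319-59541618 (+) for Nlrp3 and chr7:127993818-127994117 (-) for Pycard, where Casp4 and Nlrp3 are shown by the first of their 2 windows. Capitals mark matches to the NF-kB (kappa B) consensus on either strand.
Casp1: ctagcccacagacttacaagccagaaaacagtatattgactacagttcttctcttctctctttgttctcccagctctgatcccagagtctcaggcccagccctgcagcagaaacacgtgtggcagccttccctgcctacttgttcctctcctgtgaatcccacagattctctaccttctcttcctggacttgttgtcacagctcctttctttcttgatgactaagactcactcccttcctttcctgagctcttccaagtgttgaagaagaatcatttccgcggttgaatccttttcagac
Casp4: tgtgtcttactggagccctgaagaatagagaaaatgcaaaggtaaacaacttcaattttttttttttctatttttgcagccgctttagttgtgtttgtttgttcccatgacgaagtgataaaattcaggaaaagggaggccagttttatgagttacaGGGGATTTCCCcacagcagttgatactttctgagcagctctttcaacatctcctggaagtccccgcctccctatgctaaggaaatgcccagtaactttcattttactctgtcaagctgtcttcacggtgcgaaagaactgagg
Nlrp3: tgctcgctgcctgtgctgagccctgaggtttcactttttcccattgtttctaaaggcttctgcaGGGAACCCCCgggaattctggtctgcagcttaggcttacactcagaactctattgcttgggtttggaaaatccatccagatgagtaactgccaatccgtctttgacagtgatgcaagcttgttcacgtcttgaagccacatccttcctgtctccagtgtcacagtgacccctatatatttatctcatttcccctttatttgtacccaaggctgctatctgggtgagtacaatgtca
Pycard: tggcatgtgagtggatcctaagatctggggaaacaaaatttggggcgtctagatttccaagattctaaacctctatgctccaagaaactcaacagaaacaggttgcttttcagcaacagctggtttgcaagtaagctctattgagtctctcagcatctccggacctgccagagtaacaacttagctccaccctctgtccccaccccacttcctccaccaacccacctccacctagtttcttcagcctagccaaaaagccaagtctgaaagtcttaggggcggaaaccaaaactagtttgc

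The Casp4 window held 2 overlapping kappa B matches that cover 11 letters and the Nlrp3 window held 1, while 4.51% of 32851 such windows held any (1480 windows). Interferon-stimulated response element letters (GAAA and again GAAA with any 2 bases between, 3.44% of windows) and gamma-activated site letters (TTCNNNGAA, 8.30%), searched on both strands, were in none of the 4. A match describes letters and not binding, and no match speaks only of this window. The 4 windows held few CpG dinucleotides, 3 in those of Casp1 and Pycard, 5 in Casp4 and 4 in Nlrp3, against a median of 7 over all windows. The window of Casp8, with 5, also lay below that median, and those of Casp6 and Casp9, with 16 and 28, lay above it. Windows were found for 7 of the 8 genes.

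Casp1 had 9.21, 12.0 and 11.5 CPM in KO libraries 1, 2 and 3, against 12.7, 16.3 and 18.8 CPM in Control libraries 1, 2 and 3. Each KO library lay below each Control library, but the gap between KO library 2 and Control library 1 was small beside the spread within the groups. The means were 10.9 ± 1.49 CPM in KO and 15.9 ± 3.07 CPM in Control cells (SD, n = 3 each), which is -0.55 as a log2 fold change (SE 0.20, with a 95% interval of -0.99 to -0.12), with an unadjusted edgeR p of 0.0183 and an adjusted p of 0.0629. Whether Casp1 passed depended on the setting, since 6 of 15 alternatives called it lower and the fold change was negative in all 15 (-0.85 to -0.41, adjusted p 0.00651 to 0.231). It was called with DESeq2 (-0.55, adjusted p = 0.0491), with scaling by total counts (-0.71, 0.0308), with the replicate number as a block (-0.54, 0.0453), after a per-library correction for exon length and GC content (-0.85, 0.00651; with the block 0.0118) and without Control library 1 (-0.68, 0.0373). Casp1 has 1497 exon bases, the fewest of the 8.

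Casp4 was a low transcript with 56, 47 and 50 counts in KO libraries 1, 2 and 3, against 28, 108 and 148 in Control libraries 1, 2 and 3. In CPM these were 4.23, 3.16 and 2.49 in KO libraries and 2.51, 6.40 and 5.91 in Control libraries. Control library 1 fell within the KO range, and the other Control libraries lay above it. Its fold change of -0.62 on the log2 scale (SE 0.37, edgeR adjusted p = 0.236, 95% interval -1.44 to 0.21) did not pass, and 0 of 15 alternatives called it (adjusted p 0.0565 to 0.576).

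Of the platform genes, Nlrp3, the sensor (ENSMUSG00000032691.14, chromosome 11, 59541568 to 59566956, + strand), had 65.2, 78.9 and 86.8 CPM in KO libraries, against 75.8, 80.9 and 79.8 CPM in Control libraries. The Control libraries were close together and lay within the KO range. Means were 77.0 ± 10.96 CPM in KO and 78.8 ± 2.69 CPM in Control cells (SD, n = 3 each), or -0.03 on the log2 scale (SE 0.14, edgeR adjusted p = 0.871, 95% interval -0.35 to 0.28), which turned to 0.07 without KO library 1.

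Pycard, whose product ASC links NLRP3 and AIM2 to pro-caspase-1 (ENSMUSG00000030793.4, chromosome 7, 127989708 to 127993867, - strand), had 1, 7 and 15 counts in KO libraries, against 1, 16 and 8 in Control libraries. Library 1 of each group held a single count, and the groups overlapped. The 23 and 25 summed counts gave a KO over Control ratio of 1.01 (95% interval 0.549 to 1.86, counting error only), which was 1.92 without Control library 2, the high Control library, and 0.604 without KO library 3. That interval leaves out the spread between libraries, so it sets no limit on the difference that could have been missed. Per kilobase of exon, Nlrp3 stood 167-fold above Pycard in KO cells and 163-fold above it in Control cells, a ratio that rests on few Pycard counts: it ranged from 128 to 247 when 1 KO library was left out and from 119 to 356 when 1 Control library was, the highest being without Control library 2. Exon length here counts every annotated exon base of a gene, which can exceed the length of the transcripts present. A shorter Pycard transcript would give a higher Pycard level per kilobase and a smaller ratio. Which transcripts were present was not tested. An unclassified transcript on the opposite strand, not analysed here, shares 485 of Pycard's 3800 exon bases.

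Gsdmd, which encodes the pore former gasdermin D (ENSMUSG00000022575.5, chromosome 15, 75862327 to 75867408, + strand), had 44.0, 41.0 and 44.1 CPM in KO libraries, against 34.4, 35.6 and 39.2 CPM in Control libraries. All KO libraries lay above all Control libraries, as they did for 21.1% of genes tested. Its log2 fold change was 0.24 (SE 0.13, 95% interval -0.04 to 0.53, edgeR adjusted p = 0.179), and 0 of 15 alternatives called it.

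**Figure D2:**
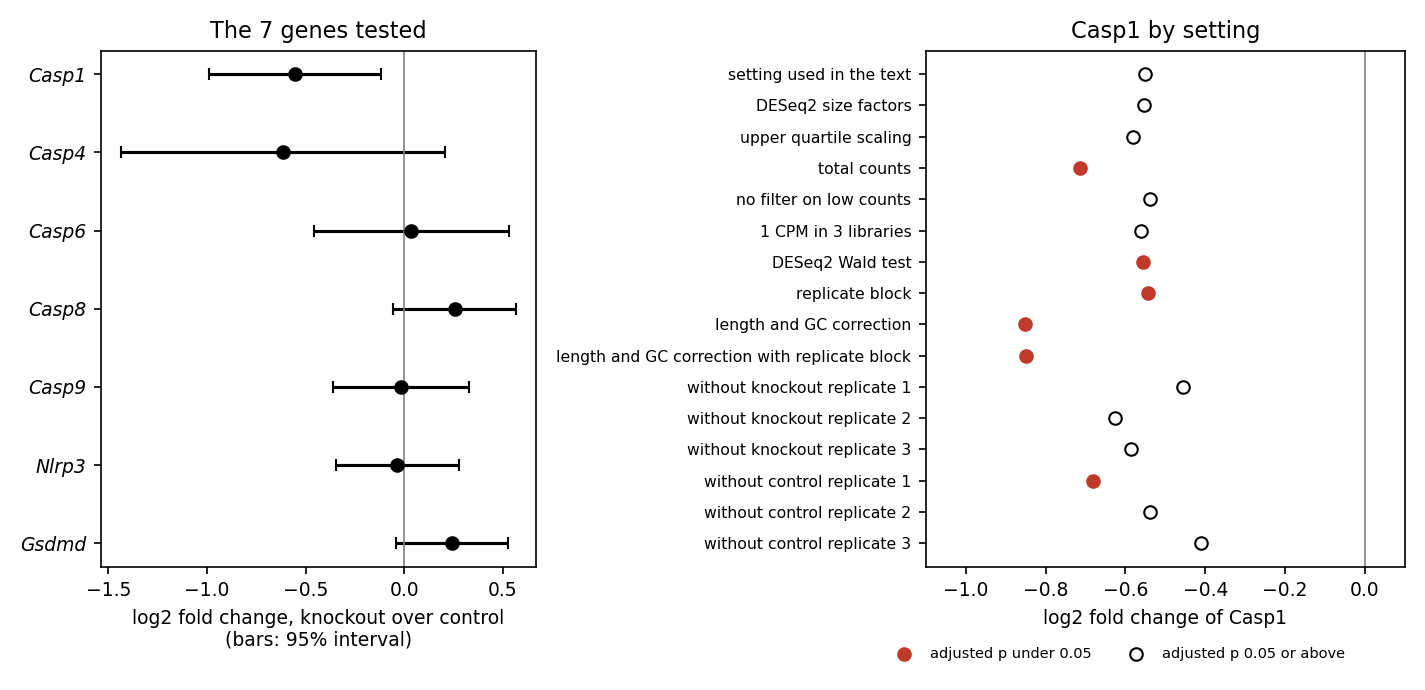
Left, log2 fold change (knockout over control) of the 7 genes tested with 95% intervals; right, the log2 fold change of Casp1 in the setting used in the text and in 15 alternatives, filled where the adjusted p is under 0.05. The interval of Casp1 alone excludes 0, and its 16 values all lie below 0, between -0.85 and -0.41.

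Of the caspases that start apoptosis, Casp8 (ENSMUSG00000026029.14, chromosome 1, 58795374 to 58847503, + strand) had 76.8, 84.5 and 85.0 CPM in KO libraries, against 58.1, 71.9 and 76.0 CPM in Control libraries. The groups were apart by less than 1 CPM, between KO library 1 and Control library 3. On the log2 scale the difference was 0.26 (SE 0.14, 95% interval -0.06 to 0.57, edgeR adjusted p = 0.197), positive in all 15 alternatives and called in 0.

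Casp9 (ENSMUSG00000028914.13, chromosome 4, 141793612 to 141815976, + strand) had 56.8, 40.7 and 46.7 CPM in KO libraries, against 52.5, 48.8 and 44.6 CPM in Control libraries. KO library 1 was the highest of all and KO library 2 the lowest, so that the KO range held the whole Control range. In log2 terms the difference was -0.02 (SE 0.15, 95% interval -0.36 to 0.33, edgeR adjusted p = 0.944). Its exons share 94 bases with Cela2a and Ctrc on the opposite strand, both at 0 counts in every library.

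Casp6, an executioner that cuts nuclear lamins (ENSMUSG00000027997.9, chromosome 3, 129901425 to 129914103, + strand), had 25.1, 41.0 and 36.5 CPM in KO libraries, against 24.5, 34.7 and 40.4 CPM in Control libraries. Library 1 was the lowest of each group by a wide margin. Its log2 difference was 0.04 (SE 0.22, 95% interval -0.46 to 0.53, edgeR adjusted p = 0.916).

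On a per-length scale (CPM per kilobase of annotated exon, mean ± SD, n = 3 each), Casp8 ranked first, at 28.4 ± 1.59 in KO and 23.7 ± 3.24 in Control cells. Nlrp3 followed at 19.0 ± 2.701 in KO and 19.4 ± 0.66 in Control cells, then Gsdmd at 18.1 ± 0.74 in KO and 15.3 ± 1.05 in Control cells. Casp9 had 9.25 ± 1.56 in KO and 9.36 ± 0.76 in Control cells. Casp1 had 7.29 ± 0.998 in KO and 10.6 ± 2.05 in Control cells, and Casp6 had 6.12 ± 1.47 in KO and 5.95 ± 1.44 in Control cells. Casp4, at 0.887 ± 0.237 in KO and 1.33 ± 0.57 in Control cells, and Pycard, at 0.113 ± 0.089 in KO and 0.119 ± 0.117 in Control cells, were far below the rest. Casp1 had rank 5 in KO and rank 4 in Control cells, changing places with Casp9, and no other rank changed. Among KO libraries the ranges of Nlrp3 and Gsdmd, of Casp9 and Casp1 and of Casp1 and Casp6 overlapped. Among Control libraries only those of Casp1 and Casp9 did, and Casp8 and Nlrp3 were apart by little (lowest 20.1, highest 19.9). The lengths take all annotated exons of a gene together, so these levels and ranks depend on that choice.

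**Figure D3:**
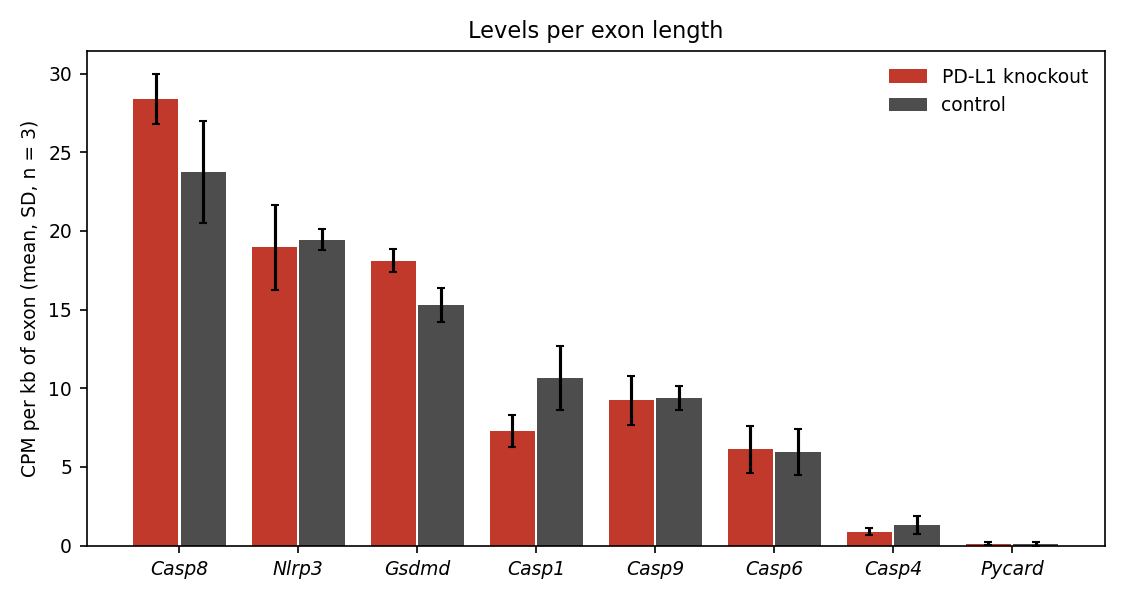
CPM per kilobase of exon for the 8 genes in order of their Control level; bars are means of 3 libraries and error bars the SD, red for KO and grey for Control cells. Casp8, Nlrp3 and Gsdmd stand above 15 in both groups, and Pycard is near 0.

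The genes whose log2 CPM followed each of the 7 most closely over the 6 libraries were Prss16 for Casp1 (Pearson r = 0.995), Mapk1ip1 for Casp4 (0.996), Lpcat2 for Casp6 (0.989), Il18 for Casp8 (0.995), Btbd9 for Casp9 (0.998), Bag3 for Nlrp3 (0.979) and Stx5a for Gsdmd (0.986). Each was the best of 9276 or 9277 candidates whose mean log2 CPM reached 2 or more. All values come from the same 6 libraries and share their scaling, so these are descriptions only.

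Some partners of these genes passed the test. Of 75 tested genes in 8 lists that include sensors, regulators, gasdermins, cytokines, apoptosome, death receptor and substrate genes, 8 were higher and 18 lower in KO cells, against 11.8% higher and 13.5% lower among all genes tested. Their median log2 fold change was -0.09. Scaled by total counts alone, which set the median over all genes at -0.14, 3 were higher and 24 lower, and over all genes 667 were higher and 2212 lower in place of 1353 and 1543. Without Control library 2, the one with high Col1a1 and Fn1 counts, 1 was higher and 3 were lower. Without KO library 2 it was 2 and 8, without KO library 3 it was 2 and 6, without Control library 3 it was 3 and 11, and without KO library 1 it was 14 and 23. Calls over all genes changed as well, from 2896 to 638 of 11607 tested without Control library 2. They came to 1044 without KO library 2, 1222 without KO library 3, 1783 without Control library 3 and 4962 without KO library 1. Of 23 called genes named by rule, 19 were not called in at least 1 of the 15 alternatives, and those called in all 15 include Ripk3, P2rx7 and Il1r2.

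Of the other caspases, Casp2 did not pass (-0.35, adjusted p = 0.0804; called with total counts, -0.51, 0.0229). Casp12 and Casp14 had 0 counts in every library.

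Ripk3, the kinase that starts necroptosis where caspase-8 is not active, was nearly lost in KO cells. It had 7, 9 and 9 counts in KO libraries, against 99, 118 and 172 counts in Control libraries, or 0.527 ± 0.078 CPM in KO and 7.57 ± 1.11 CPM in Control cells (SD, n = 3 each). The log2 fold change was -3.84 (SE 0.30, edgeR adjusted p = 8.8e-05). Its substrate Mlkl, which forms the necroptotic pore, had 54.1 ± 5.50 CPM in KO and 44.9 ± 3.96 CPM in Control cells (adjusted p = 0.169, named after its value was seen). Ripk1, the upstream kinase, fell (-0.42, SE 0.13, adjusted p = 0.0402) and Tradd, a death receptor adaptor, rose (0.48, SE 0.14, adjusted p = 0.0356), but Ripk1 was called in 6 and Tradd in 8 of 15 alternatives. Leaving out KO library 2, KO library 3, Control library 2 or Control library 3 ended both calls (adjusted p 0.0684 to 0.157 for Ripk1 and 0.0852 to 0.144 for Tradd), and so did the length and GC correction (0.217 and 0.3002), while leaving out Control library 1 ended that of Ripk1 (0.0797). Fadd (0.10, 95% interval -0.31 to 0.52, adjusted p = 0.698) and the caspase-8 inhibitor Cflar (-0.15, -0.63 to 0.34, adjusted p = 0.645) did not pass. Of 16 tested genes of this list 1 was higher and 2 were lower, with a median of -0.05.

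**Figure D4:**
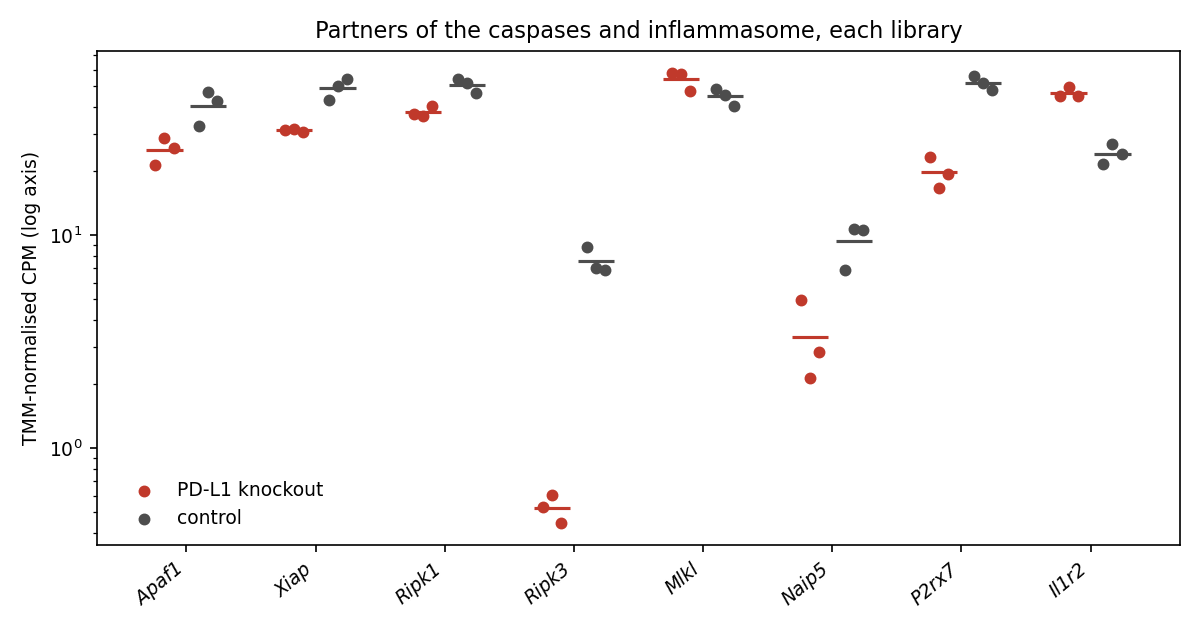
TMM-normalised CPM on a log axis for 8 partner genes, with 1 point per library and a line at the mean of 3; KO libraries are in red and Control libraries in grey. Ripk3 lies below 1 CPM in each KO library and above 6 CPM in each Control library, while the groups overlap for Mlkl.

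Of the apoptosome and its inhibitors, 10 genes were tested, of which 1 was higher and 4 lower (median -0.29). Apaf1, the scaffold that activates caspase-9, had 21.3, 28.5 and 25.6 CPM in KO libraries, against 32.5, 47.0 and 42.5 CPM in Control libraries, and fell by 0.69 on the log2 scale (SE 0.18, edgeR adjusted p = 0.0199). That call was lost without Control library 2 (adjusted p = 0.104), Control library 3 (0.0565) or KO library 3 (0.0649), and with the correction for length and GC (-0.43, 0.117). Xiap, which binds and blocks caspase-9, had 31.2, 31.6 and 30.5 CPM in KO libraries, against 43.0, 50.1 and 54.3 CPM in Control libraries (-0.66, SE 0.14, adjusted p = 0.0101; without Control library 2, 0.0582). Birc2 (-0.59, adjusted p = 0.0421) and Birc6 (-0.71, adjusted p = 0.0271), further members of the inhibitor family, fell as well, but the value of Birc6 turned to 0.10 with the length and GC correction. Birc2 and Birc6 were not called without KO library 2 (0.0805 and 0.1), KO library 3 (0.138 and 0.102) or Control library 2 (0.165 and 0.123), nor Birc2 without Control library 3 (0.1497) or Birc6 without Control library 1 (0.0802). The other call was Birc5 (0.50, adjusted p = 0.0438), named after its value was seen, which 5 of 15 alternatives called. It was not called when any 1 library other than KO library 1 was left out (0.0544 to 0.187), with upper quartile scaling (0.0504), with total counts (0.107), with the block (0.0504) or with the length and GC correction (0.0838; with the block 0.1202).

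Other inflammasome sensors had 0 higher and 5 lower of 10 tested, with a median log2 fold change of -0.70. The falls were those of the NAIP proteins that detect bacterial flagellin or secretion system parts for NLRC4, of Dpp8, a peptidase that restrains NLRP1, and of Nlrp10 (-0.58, edgeR adjusted p = 0.0297), named after its value was seen. Nlrp10 was not called without KO library 2 (0.0595), KO library 3 (0.113), Control library 2 (0.156) or Control library 3 (0.0716). Without Control library 2, 0 of the 10 were called, where 638 of all 11607 genes tested were. Naip5 had 4.98, 2.15 and 2.84 CPM in KO libraries, against 6.89, 10.7 and 10.5 CPM in Control libraries (-1.51, SE 0.33, edgeR adjusted p = 0.0121; without Control library 2, 0.0609). Naip6 (-1.24, adjusted p = 0.0187) and Naip2 (-0.83, adjusted p = 0.0195) fell too. Without Control library 2 these came to adjusted p = 0.0842 for Naip6 and 0.0931 for Naip2, without KO library 2 to 0.0701 and 0.0689, and without KO library 3 to 0.0732 and 0.0708, and Naip6 was at 0.0505 without Control library 3. The Naip genes are close copies, so their reads may have been split among them. Dpp8 (-0.63, adjusted p = 0.0242) was not called with the length and GC correction (0.189) or without KO library 2 (0.0968), KO library 3 (0.1001), Control library 2 (0.112) or Control library 3 (0.0567). Aim2, the DNA sensor, was the most abundant of the sensors per kilobase, at 39.4 ± 4.31 in KO and 35.0 ± 8.01 in Control cells, and did not pass (0.17, 95% interval -0.22 to 0.57, adjusted p = 0.494). Nlrc4 (-0.76, adjusted p = 0.119) and Nlrp1b (-0.48, adjusted p = 0.0726; called with total counts, -0.63, 0.0381) did not pass.

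Among 13 tested genes that activate or regulate NLRP3, 1 was higher and 1 lower (median 0.10). P2rx7, the ATP-gated channel whose opening lets potassium out and so triggers NLRP3, had 23.3, 16.7 and 19.4 CPM in KO libraries, against 56.0, 51.8 and 48.0 CPM in Control libraries (-1.39, SE 0.16, edgeR adjusted p = 0.000668). Hsp90ab1, a chaperone, rose (0.53, adjusted p = 0.0174) but was not called without Control library 2 (0.0935), Control library 3 (0.0742), KO library 2 (0.0514) or KO library 3 (0.0637), or with the length and GC correction and the block (0.0608). Nek7, which binds NLRP3 during activation, did not pass (0.10, 95% interval -0.19 to 0.39, adjusted p = 0.592).

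Downstream, 5 of 13 gasdermin and membrane rupture genes in the table passed the filter on low counts, of which 2 were higher and 0 lower (median 0.30), and another 5 had 0 counts in every library. Of the other gasdermins only Gsdme was tested, and it did not pass (0.03, 95% interval -0.48 to 0.53, edgeR adjusted p = 0.94). Ninj1, which ruptures the membrane late in lytic death, rose (0.46, SE 0.14, adjusted p = 0.0389), as did Chmp4b, a membrane repair subunit (0.39, SE 0.12, adjusted p = 0.0437). Ninj1 was called in 8 and Chmp4b in 4 of 15 alternatives. Both calls ended with the length and GC correction (adjusted p = 0.411 for Ninj1 and 0.409 for Chmp4b) and without KO library 2 (0.121 and 0.143), KO library 3 (0.0806 and 0.117), Control library 2 (0.179 and 0.191) or Control library 3 (0.125 and 0.113), and that of Chmp4b without Control library 1 (0.0534). Il1b, the main substrate of caspase-1, had 0, 0 and 2 counts in KO libraries, against 0, 3 and 2 in Control libraries. Il18 had 10.3, 14.4 and 14.6 CPM in KO libraries, against 4.65, 8.0 and 10.5 CPM in Control libraries, with KO library 1 just below the highest Control library. It did not pass (0.75, SE 0.28, adjusted p = 0.0739), and 5 of 15 alternatives called it higher: without KO library 1 (0.87, 0.0185), without Control library 3 (1.04, 0.0435), with DESeq2 (0.75, 0.0427), with the block (0.80, 0.0163) and without the low-count filter (0.76, 0.0215).

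The receptors of these cytokines moved in different directions. Of 7 tested genes of the interleukin-1 family 1 was higher and 3 were lower (median -0.47). Il1r2, a decoy that binds interleukin-1 without signalling, had 45.1, 49.4 and 45.3 CPM in KO libraries, against 21.6, 26.7 and 24.1 CPM in Control libraries (0.95, SE 0.14, edgeR adjusted p = 0.00242). Il1r1, the signalling receptor, fell to 3, 9 and 3 counts in KO libraries, against 17, 23 and 24 in Control libraries (-1.96, SE 0.54, adjusted p = 0.0269), and was not called without Control library 1 (0.0642), Control library 2 (0.107) or KO library 3 (0.107). The antagonist Il1rn (-1.36, adjusted p = 0.021) and the interleukin-18 receptor chain Il18rap (-0.47, adjusted p = 0.0401) fell too, and were not called without KO library 2 (0.0647 and 0.0833), KO library 3 (0.0858 and 0.0741), Control library 1 (0.0517 and 0.0809) or Control library 2 (0.0678 and 0.145), nor Il18rap without Control library 3 (0.07415) or with the length and GC correction (-0.37, 0.0966; with the block 0.109). Il1rn was called in 11 and Il18rap in 8 of 15 alternatives.

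Of 11 tested substrates of the apoptotic caspases, 2 were higher and 2 lower (median -0.01). Bid, which caspase-8 cuts to engage mitochondria, had 187, 212 and 212 CPM in KO libraries, against 136, 115 and 126 CPM in Control libraries (0.70, SE 0.13, edgeR adjusted p = 0.00665; without Control library 2, 0.0515). Lmna, a nuclear lamin cut by caspase-6, rose (0.62, adjusted p = 0.0404; without Control library 2, 0.166; without Control library 3, 0.129; without KO library 2, 0.117; without KO library 3, 0.109). Total counts ended that call as well (0.47, 0.0684), and 10 of 15 alternatives made it. The other lower call was Sptan1, a spectrin, named after its value was seen (-0.82, adjusted p = 0.0361), whose groups overlap. It was made in 9 of 15 alternatives, and not without KO library 2 (0.129), KO library 3 (0.118), Control library 1 (0.119) or Control library 2 (0.107), nor with the length and GC correction (-0.28, 0.235). Rock1, the kinase behind membrane blebbing, fell (-0.68, adjusted p = 0.00807; with the length and GC correction, 0.185; without Control library 2, 0.0556).

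**Figure D5:**
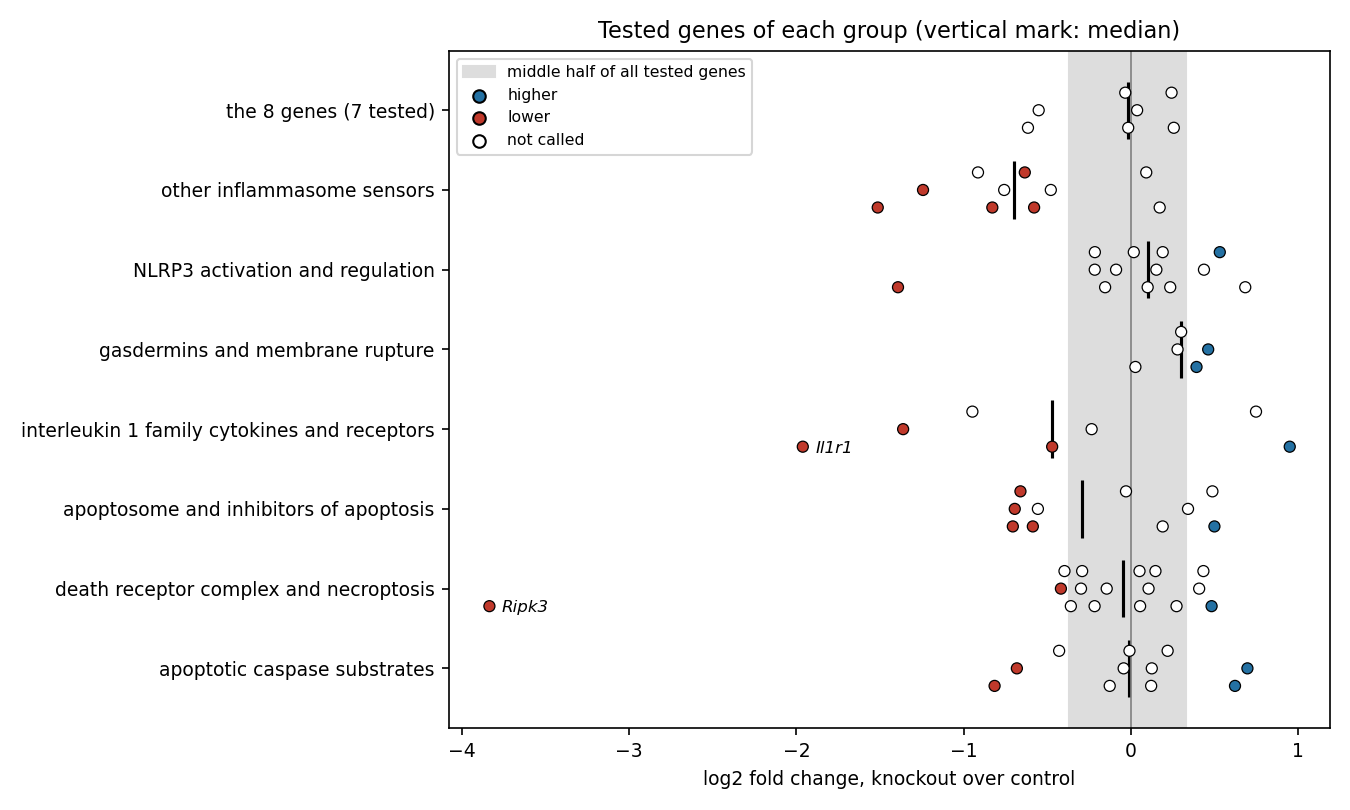
Log2 fold change (knockout over control) of each tested gene, by list for 7 of the lists, with filled points for calls and a vertical mark at each median; the grey band holds the middle of the distribution of all genes tested, from -0.37 to 0.33. The 7 tested genes of the 8 include no filled point, while Ripk3 lies at -3.84.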

How the data were processed

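Unscaled read counts per gene, as whole numbers, were deposited for 6 libraries. The submitters' processing notes name Trimmomatic 0.39, STAR 2.7.5c, StringTie 2.1.7 and the build mm10. Per the labels' protocols, total RNA was taken with TRIzol and made into libraries with a KAPA Hyper Prep kit. How reads were counted, with which annotation and whether by strand, is not given in the sources used here, so reads of overlapping antisense genes cannot be separated.

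Columns were matched to samples by name. Of 31205 genes, 11453 passed edgeR's filterByExpr. With edgeR 4.0.16 in R 4.3.3, TMM scaling and the quasi-likelihood test of knockout against control were used, two-sided, with Benjamini-Hochberg adjustment over all genes tested and a threshold of 0.05. SE and 95% intervals come from the F statistic. Counting intervals are exact binomial, cover counting error only and take no account of replicates. No 2 libraries of 1 group agreed within sampling noise. Steps were tested on simulated data.

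GENCODE M21 gave positions, exon lengths and GC content (the assembly of mm10), where 30144 symbols matched directly, 314 through another symbol and 747 did not. The 8 genes and the lists were chosen with earlier results of these data known. Named partners were up to 4 called genes a list with the lowest adjusted p and non-overlapping groups, plus a fixed set, and the most similar gene by Pearson r.

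Some partner genes are not reported here. Alternatives were scaling by total counts, by upper quartiles or by DESeq2's size factors, leaving out the low-count filter or asking for 1 CPM in 3 libraries, DESeq2 1.42.0 (Wald test), the replicate number as a block, offsets for exon length and GC content (loess, span 0.3) without and with the block, and leaving out each library.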

Additional observations from a re-analysis of the deposited data

How the results depend on the processing

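The call of 0 genes lower among the 8 became 1, Casp1, with total counts, DESeq2's Wald test, the replicate block, and the length and GC correction without and with the block. Leaving out 1 library gave 0 to 1 lower and 0 higher. With total counts 667 of all genes and 3 partner genes were higher, and with the length and GC correction and the block 5 partner genes were. Leaving out 1 library, higher calls over all genes ranged from 166 to 2346 and lower calls from 472 to 2616, and among partners from 1 to 14 higher and from 3 to 23 lower.

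Signs turned with total counts for Casp6 (-0.13), Fadd (-0.0508), Gsdme (-0.14) and Nek7 (-0.0536), and with upper quartile scaling for Gsdme (-0.0018). They turned with the length and GC correction for Casp9 (0.0713), Cflar (0.24) and Birc6 (0.10), and with the block added for Casp9 (0.0664), Cflar (0.27) and Birc6 (0.11). Leaving out 1 library turned Nlrp3 (-0.1244 to 0.0671), Casp6 (-0.13 to 0.2069), Casp9 (-0.155 to 0.0884) and Gsdme (-0.12 to 0.2275) in at least 1 case, given as ranges over the 6 libraries. The cause was not tested. The Pycard count ratio ranged from 0.604 to 1.92.

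Same-numbered libraries had correlations of deviations from their group means of 0.15, -0.06 and 0.36. KO libraries 1 and 3 were closest to the Control library of the same number, and KO library 2 to Control library 3 (0.11). KO library 1 was nearly as close to Control library 2 (0.14). Whether the numbers pair the libraries cannot be told from these values. With the replicate block 1480 genes were higher and 1732 lower, and 7 and 17 partners. Depth limits Pycard most. Casp4 had the next fewest counts, and its Control libraries were widely spread (2.51, 6.40 and 5.91 CPM). Its KO over Control count ratio was 0.593 (95% interval 0.484 to 0.724, counting error only), which leaves out that spread.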
